A study of Caenorhabditis elegans with 10 samples.

Results

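The genes described here encode the proteins of the cytosolic ribosome of Caenorhabditis elegans. They were taken as every gene symbol that begins with rpl- or rps- and a number, on probe sets annotated to a single gene, with 1 probe set per gene chosen by the highest mean over the 10 arrays. The rule found 75 genes, 45 of the large subunit and 30 of the small subunit, and 74 of them were among the 12641 genes tested. The remaining member, rpl-42, was read by a probe set that lay between 2.29 and 2.32 on the log2 scale in all 10 arrays, under the lower limit of 2.60 set for testing, so it carried no measurable signal. RefSeq lists 78 genes under these names. The others were rpl-18A, which is not analysed here, and rpl-37.1 and rpl-37.2, which share 1 probe set. The rule also admitted names beginning with rla-, of which there were 0, because the acidic stalk proteins are now named rplp and are described further on.

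The cytosolic ribosome joins a small subunit, which reads the messenger RNA, to a large subunit, which forms the peptide bond. Each subunit is a scaffold of ribosomal RNA with a fixed set of proteins, nearly all present in a single copy, so their genes are usually expressed together. In the worm most ribosomal proteins are encoded by a single gene, with a few pairs of copies, and the germ line of the adult, which fills oocytes with ribosomes, is a large consumer of them. Ribosome production is tied to growth and nutrients through the TOR kinase and its target, the S6 kinase.

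The series measured whole young adult worms with a damaged mitochondrial electron transport chain, with 1 Affymetrix whole-genome array per strain. The wild type N2 was measured on 2 arrays. The first came from animals raised on OP50 plates and then in K12 liquid culture, and is the control of 3 missense mutants raised in the same way: gas-1 (fc21, complex I), mev-1 (kn1, complex II) and isp-1 (qm150, complex III). The second came from animals kept on HT115 bacteria throughout, and is the control of N2 animals fed RNAi bacteria, in 5 mM IPTG, against nduf-6 (F22D6.4), nuo-5 (Y45G12B.1), ndua-13 (C34B2.8), ndab-1 (Y56A3A.19) or ndub-7 (D2030.4), all of complex I. All animals spent 2 generations on plates before liquid culture, and all were enriched for adults on sucrose. RNA from 3 biological replicates was pooled on each array, which leaves every strain and both controls with a single measurement. The p-values below therefore set a difference against the spread between different mutants of 1 kind. IPTG and an empty vector are not mentioned for the HT115 wild type, and the isp-1 label cites the sequence name of mev-1.

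All values are log2 signals, normalised to a common distribution over the 10 arrays. In whole animals fewer cells of a type and less RNA per cell cannot be told apart. Against the HT115 wild type, the targeted transcript stood at -0.95 for nuo-5, -0.51 for ndua-13, -0.25 for nduf-6 and -0.18 for ndub-7, but at 1.08 for ndab-1, against that array's label. Missense alleles need not lower their own transcript, so their signal checks nothing. The arrays also differed in their tissue markers. The median of 36 sperm genes stood 2.61 below its wild type in nduf-6 RNAi and 1.64 above it in ndub-7 RNAi. The median of 13 moulting genes stood 1.07 above it in ndub-7 RNAi and 0.57 below it in gas-1, and that of 12 neuronal genes was 0.74 higher in the K12 than in the HT115 wild type. The part of these differences in the results below was not tested, except where values without the nduf-6 and ndub-7 RNAi arrays are given.

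The ribosomal protein genes gave some of the brightest and steadiest signals on the arrays. Their mean signals ran from 12.15 to 15.14 with a median of 14.50, and even the dimmest member that passed the limit was brighter than 96.7% of all genes tested. Members made up 62 of the 100 brightest genes and 73 of the brightest 200. The SD of a member over the 10 arrays had a median of 0.07 and ran from 0.03 to 0.28. It was above 0.2 for 3 of 74 members (4.05%), against 73.7% of all genes tested. Bright signals usually vary less, so 62 other genes with a mean at or above the 10th percentile of the members' were set beside the members. Their means ran from 13.88 to 15.76, with a median of 14.13. Some of the 62 belong to the ribosome or sit on it but fall outside the name rule: rplp-0, rplp-1, rplp-2.1, rpsa-1, fau-1, rack-1, icd-1 and icd-2. Others are collagen, vitellogenin and eggshell genes. The SD of the 62 had a median of 0.17, and 25 of the 62 were above 0.2. Large and small subunit genes were alike in this, with median SDs of 0.07 in both. Signals this close to the top of the scale may be compressed, and any scaling that rests on the bulk of the signals can hide a shift that the brightest genes share.

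**Figure D1:**
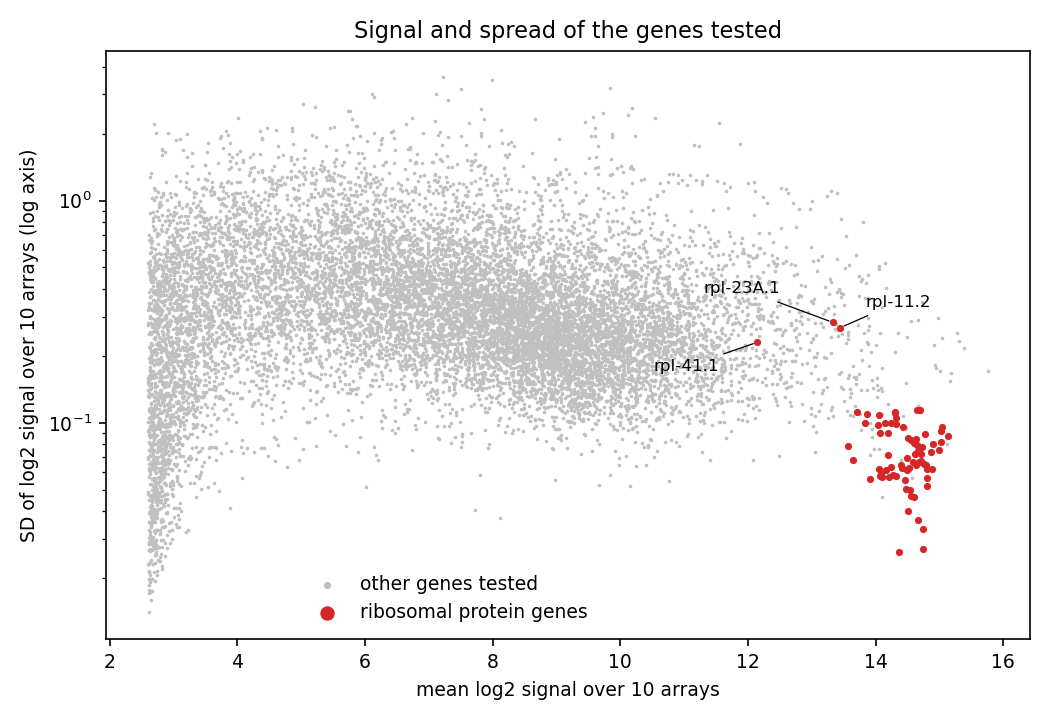
The SD of each gene over the 10 arrays (log2, vertical axis) is plotted against its mean log2 signal (horizontal axis), with the 74 ribosomal protein genes coloured and all other tested genes in grey. The members form a tight group at the bright end with SDs mostly under 0.2, and rpl-23A.1, rpl-11.2 and rpl-41.1 stand above the rest.

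The steadiest members were flat over the 10 arrays. The signal of rpl-7A, a large subunit protein, was 14.37 in the K12 and 14.36 in the HT115 wild type. It was 14.34, 14.43 and 14.39 for gas-1, mev-1 and isp-1, and lay between 14.35 and 14.38 in the 5 RNAi arrays, for an SD of 0.03. Wild types and mutants overlapped completely. The small subunit gene rps-16, which lies near the decoding site, was as flat, at 14.74 and 14.75 in the wild types, 14.74 to 14.79 in the missense mutants and 14.72 to 14.79 in the RNAi arrays. The other members with an SD of 0.04 or less were rps-25, rpl-22 and rpl-19, where wild type and mutant values also overlapped. Among the members of highest mean signal, rpl-8, rpl-21, rpl-3, rpl-35A and rps-3, the SDs lay between 0.08 and 0.10.

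The first comparison asked how the missense mutants differed from the K12 wild type. Ribosomal protein genes stood slightly above the control almost throughout, by a median of 0.10, and no member passed the test. The fitted difference was above 0 for 69 of 74 members (93.2%), where 51.8% of all genes were, and it ran from -0.01 to 0.36 over the members. The median over all genes was 0.01, and over the 62 other bright genes it was -0.06, with 26 of them higher. The shift was shared by the subunits, with a median of 0.10 and 40 of 44 higher in the large subunit, and a median of 0.09 and 29 of 30 higher in the small subunit. The 3 mutants each had it. For gas-1 the median was 0.11 with 68 of 74 members higher (49.5% of all genes), for mev-1 it was 0.09 with 66 higher (46.4%), and for isp-1 it was 0.07 with 62 higher (55.1%). The 11 muscle genes stood lower in the same arrays, with a median of -0.27 and 10 of 11 lower in the comparison. Their medians were -0.33, -0.29 and -0.22 for gas-1, mev-1 and isp-1, and their summed linear signal was 58283 to 60210 against 72481 in the control. The part of that difference in the members' shift was not tested.

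Of the members, 56 of 74 (75.7%) were higher in all 3 missense arrays, against 25.5% of all genes, and 0 were lower in all 3, also against 25.5%. These counts share a single K12 control array and are not independent of each other. That array held the lowest signal of the 10 for 17 members and the highest for 0. By limma with Benjamini-Hochberg adjustment, 0 of 74 members were called, against 0.0316% of all genes, and 1 of 74 had an unadjusted p under 0.05, against 3.05%. The 95% interval of a member's difference had a median half-width of 0.27, wider than the shift itself. The median was 0.12 on the deposited values and 0.17 with each array centred on its median, where the median of all genes was 0.06.

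**Figure D2:**
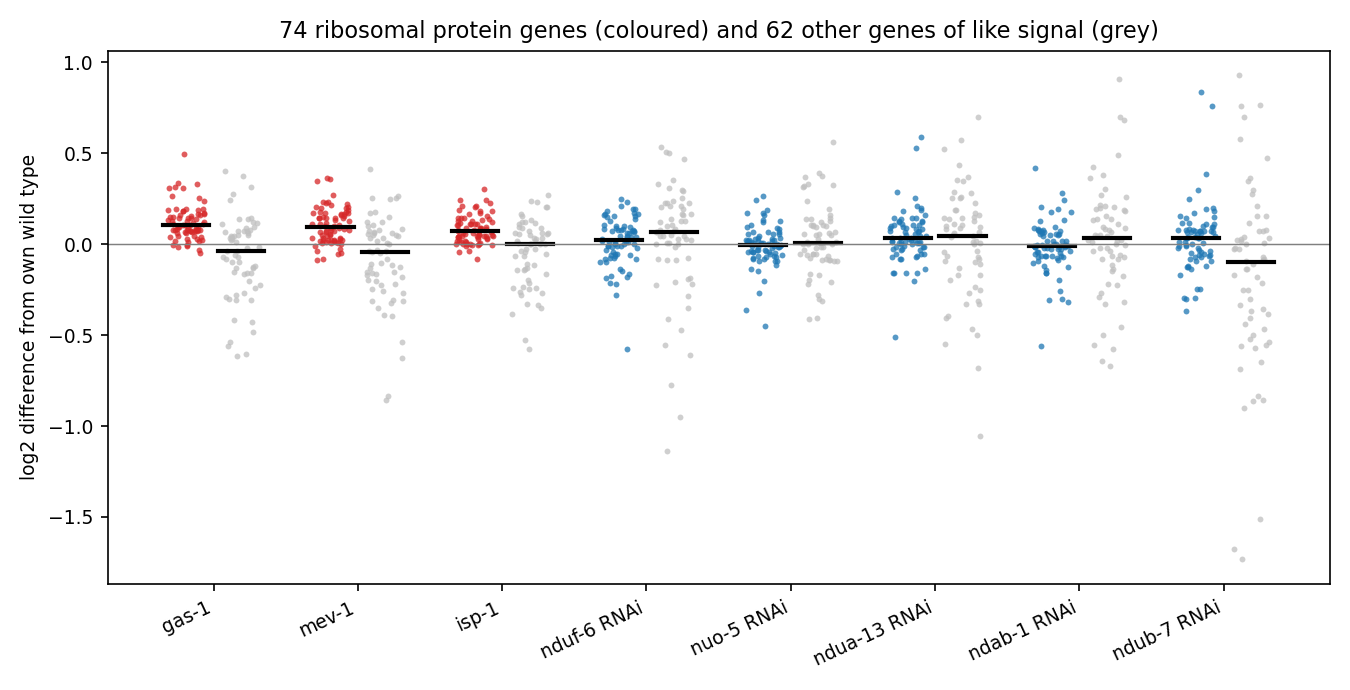
Each point is a gene's log2 signal in a mutant array minus that in its own wild type (vertical axis), with 1 column per mutant array (horizontal axis), the ribosomal protein genes coloured by kind of mutant (missense red, RNAi blue), the 62 other genes of like signal in grey and a black bar at each median. The members sit in a narrow band, slightly above 0 in gas-1, mev-1 and isp-1 (medians 0.11, 0.09 and 0.07) and around 0 in the RNAi arrays, and the grey genes spread more widely.

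The members with the smallest p in the missense comparison were spread over both subunits. The signal of rpl-14, a large subunit protein, was 13.53 in the K12 wild type and 13.84, 13.88 and 13.78 in gas-1, mev-1 and isp-1. All 3 mutants lay above both wild types, the HT115 wild type being at 13.66, while the RNAi arrays lay between 13.59 and 13.77. The fitted difference was 0.30 ± 0.12 (SE, 3 missense arrays against 1, limma adjusted p = 1.00). The small subunit gene rps-28, whose protein lies near the exit of the messenger RNA, was at 13.95 in the K12 wild type, its lowest array, and at 14.21, 14.22 and 14.26 in gas-1, mev-1 and isp-1. The HT115 wild type, at 14.11, lay between them, and the RNAi arrays, from 14.07 to 14.25, overlapped it. The difference was 0.28 ± 0.12 (limma adjusted p = 1.00).

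The other members at the head of that comparison had the same shape. For rpl-36A, which contacts the transfer RNA as it leaves, the K12 wild type was at 14.75 and gas-1, mev-1 and isp-1 were at 15.01, 14.97 and 14.96. For rpl-26, near the exit of the peptide tunnel, the K12 wild type was at 13.88 and the mutants were at 14.20, 14.08 and 14.09. For rpl-30 the K12 wild type was at 14.44 and the mutants were at 14.68, 14.67 and 14.61. In each of the 3 genes the K12 wild type was the lowest of the 10 arrays, and the HT115 wild type lay between it and the mutants, at 14.87, 13.97 and 14.59. The differences were 0.23 ± 0.11, 0.24 ± 0.13 and 0.21 ± 0.11 (limma adjusted p = 1.00 for each). That of rpl-30 was 0.35 with each array centred on its median.

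Array by array, gas-1 held the highest signal of the 10 for 27 members and mev-1 for 17. One of these was rpl-38, a small protein of the large subunit, at 14.96 in gas-1. It was at 14.63 in the K12 wild type, 14.71 and 14.65 in mev-1 and isp-1, and between 14.63 and 14.81 in the RNAi arrays. The second probe set of rpl-38 did not vary in this way, with an SD of 0.04.

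The second comparison asked how RNAi of 5 complex I subunits differed from the HT115 wild type. Here the members were centred on the control, with a median of 0.01 against 0.00 for all genes and 0.02 for the 62 other bright genes. The difference was above 0 for 43 of 74 members (58.1%), where 50% of all genes were, and it ran from -0.44 to 0.45. The large subunit had 27 of 44 members higher and the small subunit 16 of 30. The median was 0.02 for nduf-6 with 42 of 74 higher (54.9% of all genes), -0.00 for nuo-5 with 35 higher (54.4%), and 0.03 for ndua-13 with 49 higher (47.2%). It was -0.01 for the array labelled ndab-1 with 29 higher (45.9%), and 0.04 for ndub-7 with 43 higher (41.9%). Of the members, 16 of 74 (21.6%) were higher in all 5 arrays, against 15.1% of all genes, and 10 of 74 (13.5%) were lower in all 5, against 18.3%. By limma 0 of 74 members were called, against 0.396% of all genes, and 2 of 74 had an unadjusted p under 0.05, both lower, against 8.2%. The smallest adjusted p was 0.535 and the 95% intervals had a median half-width of 0.26. Without the array labelled ndab-1 the median was 0.02, and without nduf-6 and ndub-7 it was 0.01.

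The band of members stayed narrow even where the array as a whole differed most. In ndub-7 RNAi 41.4% of all genes lay beyond 1.5-fold of the wild type, against 2 of 74 members. Both were large subunit genes, rpl-11.2 at 0.84 and rpl-23A.1 at 0.76. In that array 63 of 74 members lay within 0.2 of the control, against 25 of the 62 other bright genes and 27.8% of all genes. The other arrays held 62 to 68 members within 0.2. Beyond 1.5-fold there was 1 member in ndua-13 RNAi, rpl-23A.1 at 0.59, against 24.1% of all genes. There were 0 in gas-1, mev-1 and isp-1, against 17.3%, 17.7% and 13.7%, and 0 in nduf-6, nuo-5 and the array labelled ndab-1, against 19.1%, 20.2% and 24.7%.

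Taking the 8 mutants against both wild types in a single fit, the members stood at a median of 0.04, with 56 of 74 higher, against 50.5% of all genes. In 14 of 74 (18.9%) the signal was above its own control in all 8 mutants, against 4.71% of all genes, and in 0 it was below in all 8, against 6.76%. By limma 0 of 74 were called, against 0.0158% of all genes, and 3 of 74 had an unadjusted p under 0.05, all higher, against 6.91%. The median depended on which control was used: it was 0.10 with 69 members higher without the HT115 wild type, and 0.01 with 43 higher without the K12 wild type. With each array centred on its median it was 0.09.

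The 3 members with an unadjusted p under 0.05 in this fit were rpl-18, rpl-23A.1 and rps-14. The large subunit gene rpl-18 was at 14.55 and 14.41 in the K12 and HT115 wild types. It was at 14.69, 14.78 and 14.72 in gas-1, mev-1 and isp-1, and at 14.60, 14.65, 14.69, 14.60 and 14.79 in RNAi of nduf-6, of nuo-5, of ndua-13, of ndab-1 and of ndub-7. Every mutant lay above both wild types. The difference was 0.22 ± 0.08 (8 of 8 mutants higher, limma adjusted p = 0.628). The second probe set of rpl-18 gave 0.08 in the RNAi arrays, against 0.26 for the first, and 0.23 in the missense mutants, against 0.18. The small subunit gene rps-14, which lies on the platform near the decoding region, was at 14.46 and 14.38 in the wild types, at 14.57 to 14.61 in the missense mutants and at 14.55 to 14.68 in the RNAi arrays. Wild types and mutants did not overlap here either, and the difference was 0.18 ± 0.07 (8 of 8 higher, limma adjusted p = 0.709). The second probe set of rps-14 gave 0.06 in the missense mutants and 0.07 in the RNAi arrays, against 0.14 and 0.21 for the first. Another small subunit gene with the same order was rps-8, at 14.52 and 14.45 in the wild types and 14.55 to 14.68 in the mutants (0.13, 8 of 8 higher).

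The widest differences between arrays were in genes that exist as pairs of copies. The protein of rpl-11 binds the RNA of the central protuberance of the large subunit together with that of rpl-5. Its copy rpl-11.2 (F07D10.1) lies on the X chromosome, which is largely silent in the worm germ line, and rpl-11.1 (T22F3.4) lies on an autosome and is the copy known to be needed in the germ line. The signal of rpl-11.2 was 13.44 in the K12 and 12.98 in the HT115 wild type. It was 13.64, 13.80 and 13.47 in gas-1, mev-1 and isp-1, and 13.16, 13.24, 13.51, 13.40 and 13.82 in RNAi of nduf-6, of nuo-5, of ndua-13, of ndab-1 and of ndub-7. The HT115 wild type was the lowest of the 10 arrays and ndub-7 RNAi the highest, and every mutant was above its own control.

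The fitted difference of rpl-11.2 was 0.45 ± 0.24 in the RNAi arrays, a fold of 1.36, 0.19 in the missense mutants and 0.33 ± 0.17 over all 8 (limma adjusted p = 0.703, 1.00 and 0.777). Without mev-1 the missense difference was 0.11. Without the HT115 wild type the fit over all 8 only repeated the missense value, 0.19. The second probe set of rpl-11.2 had the same extremes, with the HT115 wild type lowest and ndub-7 RNAi highest. It gave 0.37 in the RNAi arrays, 0.27 in the missense mutants and an SD of 0.26, against 0.27 for the first. The other copy, rpl-11.1, was at 13.86 and 13.99 in the wild types and at 13.86 in each missense mutant. In the RNAi arrays it was at 13.96, 14.01, 13.83, 13.83 and 13.62, with ndub-7, the array highest for rpl-11.2, the lowest of the 10. Its difference in the RNAi arrays was -0.14, within the spread of the arrays, and -0.080 without ndub-7.

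The protein of rpl-23A lies at the exit of the peptide tunnel and, like rpl-11, has an X-linked copy, rpl-23A.1 (F55D10.2), and an autosomal copy, rpl-23A.2 (F52B5.6). The signal of rpl-23A.1 was 13.23 in the K12 and 12.88 in the HT115 wild type, 13.73, 13.59 and 13.46 in gas-1, mev-1 and isp-1, and 13.11, 13.05, 13.47, 13.16 and 13.64 in RNAi of nduf-6, of nuo-5, of ndua-13, of ndab-1 and of ndub-7. The HT115 wild type was again the lowest array, and gas-1, ndub-7 and mev-1 were the highest. This gene had the largest SD of all members, 0.28. The differences were 0.36 ± 0.24 in the missense mutants, 0.40 ± 0.23 in the RNAi arrays and 0.38 ± 0.16 over all 8, with 8 of 8 mutants higher (limma adjusted p = 1.00, 0.731 and 0.695). The autosomal rpl-23A.2 stayed between 14.06 and 14.30, at 14.17 and 14.18 in the wild types. Its lowest array was ndub-7 RNAi and its highest gas-1.

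**Figure D3:**
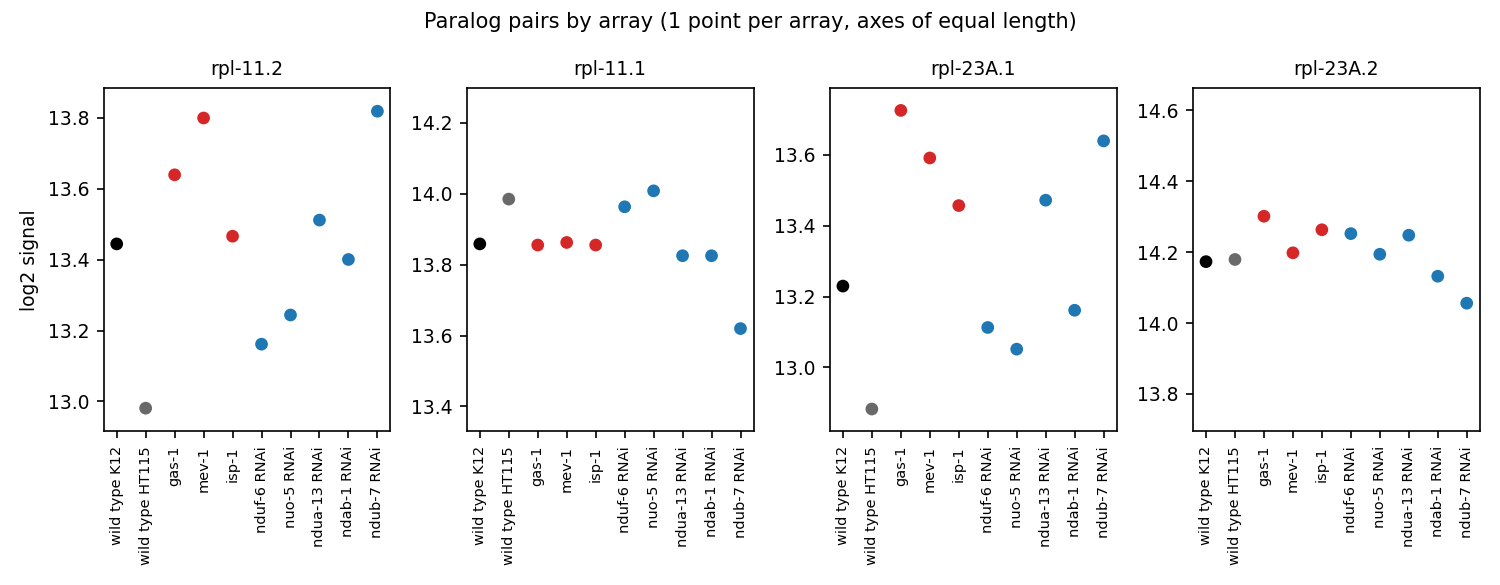
The log2 signal (vertical axis) of the copies of rpl-11 and rpl-23A is given in each of the 10 arrays (horizontal axis), with 1 panel per gene and the arrays coloured by group (K12 wild type black, HT115 wild type grey, missense red, RNAi blue). The copies rpl-11.2 and rpl-23A.1 range widely over the arrays, from 12.98 to 13.82 and from 12.88 to 13.73, and rpl-11.1 and rpl-23A.2 vary less.

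Markers of the germ line and oocytes stood on the opposite side of the control from the X-linked copies in some of the arrays. In ndub-7 RNAi the 14 oocyte and eggshell genes had a median of -0.81 against the wild type, with 0 of 14 higher, and the 14 germ line genes a median of -0.55. In the array labelled ndab-1 the medians were -0.25 and -0.37, and in ndua-13 they were -0.06 and -0.13. In nduf-6 and nuo-5, the RNAi arrays in which rpl-11.2 and rpl-23A.1 were closest to the control, the oocyte medians were 0.33 and 0.15 and the germ line medians 0.29 and 0.09. In gas-1, mev-1 and isp-1 the oocyte medians were -0.12, -0.07 and 0.07, and the germ line medians 0.02, -0.00 and 0.11. The summed linear signal of the oocyte list ran from 60132 to 137977 in the RNAi arrays, and was 117612 in their control. For the missense mutants it ran from 100950 to 109360, with 108757 in theirs. For the germ line list the sums were 17065 to 27804 in the RNAi arrays and 23279 in their control, and 21781 to 23478 in the missense mutants and 21300 in theirs. Every gene of both lists was above the lower limit for testing. The part of these tissue differences in the values of the copies was not tested. Without nduf-6 and ndub-7 RNAi the difference of rpl-11.2 in the RNAi arrays was 0.40 and that of rpl-23A.1 was 0.35.

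**Figure D4:**
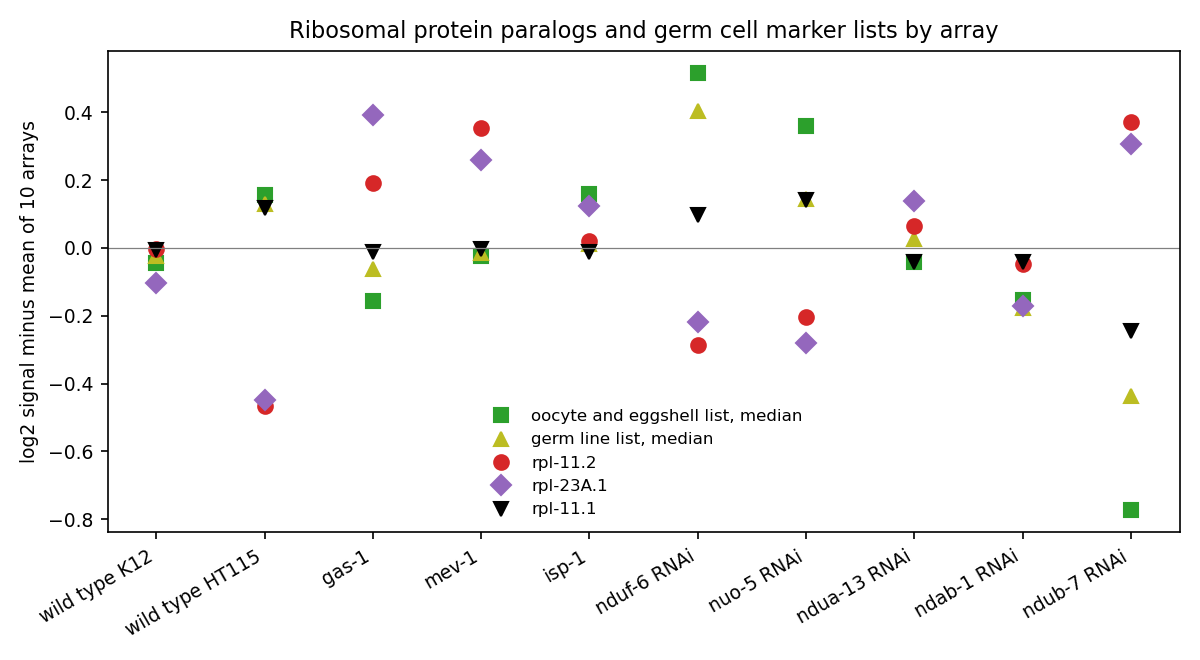
For each of the 10 arrays (horizontal axis) the log2 value minus its mean over the 10 arrays (vertical axis) is shown for the median of the oocyte list (green squares), the median of the germ line list (olive triangles), rpl-11.2 (red circles), rpl-23A.1 (purple diamonds) and rpl-11.1 (black inverted triangles). In ndub-7 RNAi the X-linked copies are high and rpl-11.1 and both lists are low, while in the HT115 wild type the X-linked copies are at their lowest.

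The smallest ribosomal protein, a basic peptide of the large subunit, has neighbouring copies, rpl-41.1 (F54D7.6) and rpl-41.2 (F54D7.7). For rpl-41.1 the K12 wild type was at 11.90, the lowest array, and the HT115 wild type at 12.60, the highest. The missense mutants were at 12.21, 11.91 and 12.05 in gas-1, mev-1 and isp-1. The RNAi arrays were at 12.02, 12.15, 12.09, 12.04 and 12.48 in RNAi of nduf-6, of nuo-5, of ndua-13, of ndab-1 and of ndub-7. All mutants lay between the 2 wild types, which differed by -0.70, K12 minus HT115, the only member beyond 1.5-fold between them, against 21% of all genes. The difference was -0.44 ± 0.19 in the RNAi arrays, with 0 of 5 higher, and 0.16 in the missense mutants (limma adjusted p = 0.605 and 1.00). Without gas-1 the missense difference was 0.083. The difference over all 8 mutants was -0.16 with both wild types. Without the HT115 wild type that fit only repeated the missense value, 0.16. The copy rpl-41.2 stayed between 14.48 and 14.62, with the K12 wild type lowest and the HT115 wild type highest as for rpl-41.1. Probe sets of close copies can read each other's RNA, so the split between the copies of rpl-11, rpl-23A and rpl-41 is uncertain, and signals of different probe sets are not comparable as amounts.

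A group of other members was also set apart in the HT115 wild type. The small subunit gene rps-9 (F40F8.10), whose protein lies at the entry of the messenger RNA, was at 14.55 in that array and 14.15 in the K12 wild type. It was at 14.33, 14.35 and 14.35 in gas-1, mev-1 and isp-1, and at 14.32, 14.19, 14.35, 14.23 and 14.25 in RNAi of nduf-6, of nuo-5, of ndua-13, of ndab-1 and of ndub-7. The mutants of both kinds overlapped with each other and lay between the wild types. The difference was -0.28 ± 0.11 in the RNAi arrays, with 0 of 5 higher, and 0.20 ± 0.12 in the missense mutants, with 3 of 3 higher (limma adjusted p = 0.535 and 1.00). The second probe set of rps-9 gave -0.25 and 0.12, with the HT115 wild type again highest, at 14.19 against 13.91 in the K12 wild type.

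The HT115 wild type was also the highest array for rps-2, which lies beside the path of the messenger RNA, and for rpl-23 and rpl-27A of the large subunit. The signal of rps-2 was 14.21 in the K12 and 14.52 in the HT115 wild type, and 14.22 to 14.44 in the 8 mutants. That of rpl-23 was 14.31 and 14.63, and 14.33 to 14.49 in the mutants. That of rpl-27A was 14.73 and 14.93, and 14.63 to 14.87 in the mutants. The mutants lay between the wild types for rps-2 and rpl-23, whereas for rpl-27A the arrays labelled ndab-1 and ndub-7 RNAi, at 14.63 and 14.69, lay below the K12 wild type. The missense and RNAi arrays overlapped for rps-2 and rpl-23. For rpl-27A the missense arrays, from 14.81 up, lay above the RNAi arrays, which reached 14.79. The differences in the RNAi arrays were -0.22 ± 0.13 for rps-2, -0.22 ± 0.12 for rpl-23 and -0.21 ± 0.11 for rpl-27A (limma adjusted p = 0.731, 0.683 and 0.723). The HT115 wild type was the highest array for 7 members, these 4 genes, rps-27A, rpl-41.1 and rpl-41.2. It was the lowest for 14, among them rpl-11.2, rpl-23A.1, rpl-18, rps-14 and rps-8. Between the wild types the members had a median of -0.01 (K12 minus HT115), with 36 of 74 higher in K12, against 46.1% of all genes.

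**Figure D5:**
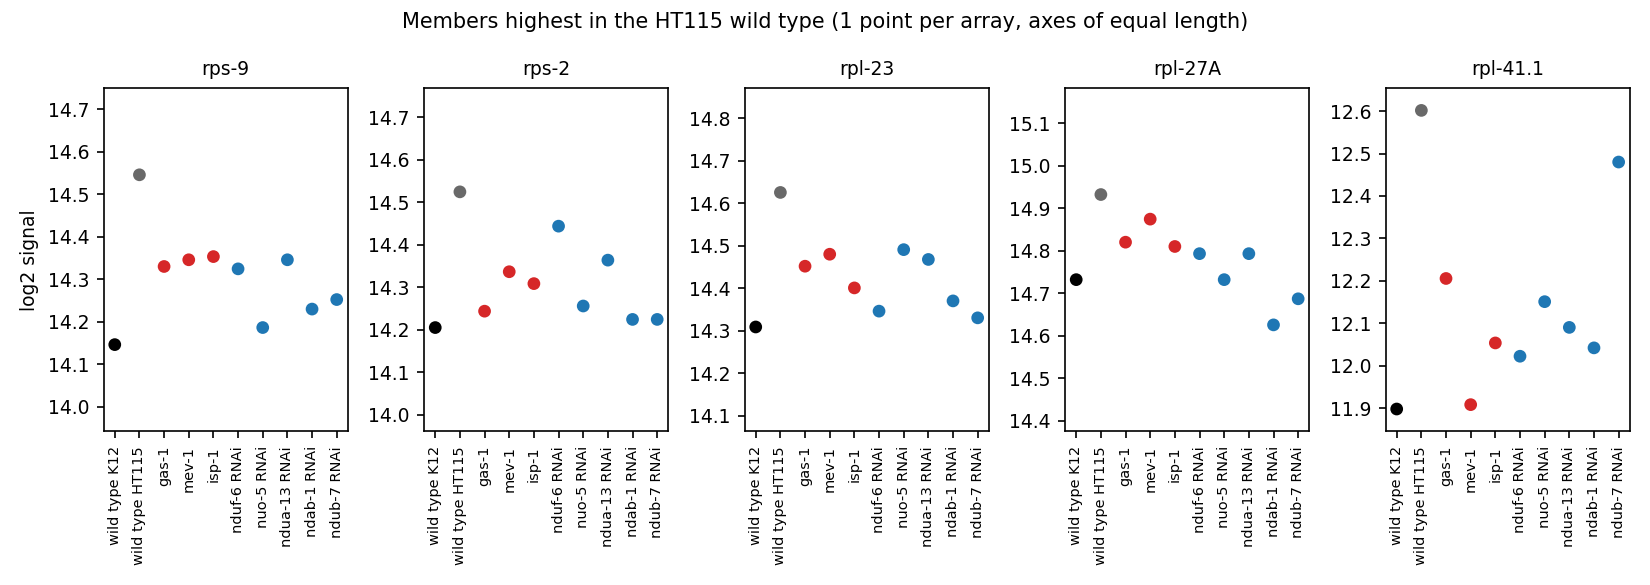
The log2 signal (vertical axis) of members in which the HT115 wild type stood apart is given for each of the 10 arrays (horizontal axis), coloured by group (K12 wild type black, HT115 wild type grey, missense red, RNAi blue). The HT115 value of rps-9, 14.55, lies above the range of the 8 mutants, 14.19 to 14.35, and the K12 value, 14.15, below it.

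The response of the missense mutants was then set against that of the RNAi arrays, as the difference between these differences. The median over the members was 0.06, with 61 of 74 higher in the missense response, against 53.5% of all genes. The median over all genes was 0.03, and over the 62 other bright genes it was -0.03. By limma 0 of 74 were called, against 0.0475% of all genes, and 1 of 74 had an unadjusted p under 0.05, against 4.23%. That member was rps-9, at 0.48 ± 0.16 (limma adjusted p = 0.999). The next were rpl-41.1 at 0.60 ± 0.28, rpl-23 at 0.36 ± 0.17, rpl-27A at 0.31 ± 0.17, rpl-14 at 0.29 ± 0.17 and rps-2 at 0.31 ± 0.18 (limma adjusted p = 0.999 for each). Each response was taken against its own wild type, and except for rpl-14 these are genes whose highest array was the HT115 wild type. The median of the members was 0.10 on the deposited values and 0.16 with each array centred on its median, where the medians of all genes were 0.015 and 0.069.

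The pairs of names that differ by a final A, such as rps-3 and rps-3A or rpl-7 and rpl-7A, are different proteins and not copies. The signal of rps-3, at the entry of the messenger RNA, was 14.88 in the K12 wild type and 15.08, 15.04 and 15.13 in gas-1, mev-1 and isp-1, while rps-3A was 14.49 there and 14.56, 14.56 and 14.52. In ndub-7 RNAi rps-3A was at 14.31, its lowest array, and rps-3 was at 15.01. For rps-15 the HT115 wild type was at 13.72 and the RNAi arrays at 13.91, 13.73, 13.97, 13.70 and 13.87 in RNAi of nduf-6, of nuo-5, of ndua-13, of ndab-1 and of ndub-7, 4 of 5 above the control. Its namesake rps-15A was at 14.09 in the HT115 wild type and 13.94 to 14.08 in the RNAi arrays. The pairs rpl-13 and rpl-13A, rpl-27 and rpl-27A, rpl-35 and rpl-35A, and rpl-36 and rpl-36A had SDs of 0.05 to 0.09.

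The array nduf-6 RNAi held the lowest signal of the 10 for 12 members, 8 of them of the small subunit. The same array held the highest signal for 9 members, 4 of them of the small subunit. Its members were not lower as a group, with a median of 0.02 and 42 of 74 above the control. Of the 12 the most variable was rps-7, a small subunit protein that also takes part in processing ribosomal RNA, at 14.08 in nduf-6 RNAi. It was at 14.32 and 14.13 in the K12 and HT115 wild types, at 14.36 to 14.39 in the missense mutants and at 14.26 to 14.38 in the other RNAi arrays. The HT115 wild type was thus nearer to nduf-6 RNAi than to any other array. In rps-11 the gap was wider, with nduf-6 RNAi at 13.87 and the other 9 arrays at 14.03 to 14.24. The sperm list was also at its lowest in nduf-6 RNAi, with a summed linear signal of 13383 against 79077 in its control. The part of that difference in the values of rps-7 and rps-11 was not tested.

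Several members were read by more than 1 probe set, 111 probe sets in all for the 75 genes. For 32 members with several, the 2 brightest agreed in the sign of the difference in 28 genes in the missense comparison and in 18 in the RNAi comparison, where the members lay around 0. They disagreed in size for rps-11, where the second probe set gave 0.43 in the missense mutants and the first 0.00, and for rpl-19, at 0.24 and 0.01. The probe sets of 49 members carry a suffix that marks sequence shared with other transcripts. With only the other kind of probe set, 34 members remained, and 32 of them were higher in the missense comparison and 17 in the RNAi comparison. The probe set shared by rpl-37.1 and rpl-37.2 stood at -0.00 in the missense mutants and -0.12 in the RNAi arrays.

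The acidic stalk proteins recruit elongation factors to the large subunit and were annotated as rplp-0, rplp-1, rplp-2.1 and rplp-2.2. They behaved like the members, with a median of 0.10 and 4 of 4 higher in the missense mutants and a median of -0.01 and 2 of 4 higher in the RNAi arrays. The most variable was rplp-2.1, at 14.47 and 14.61 in the K12 and HT115 wild types, 14.50 to 14.58 in the missense mutants and 14.33 to 14.52 in the RNAi arrays. Like rps-9 it was highest in the HT115 wild type.

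The genes that work with the ribosome gave medians of the same sign in the missense mutants. Of 8 elongation factors 7 were higher there, with a median of 0.13, and 5 were higher in the RNAi arrays, with a median of 0.04. Of all genes, 51.8% were higher in the missense mutants and 50% in the RNAi arrays. Of 20 initiation factors 16 and 13 were higher, with medians of 0.14 and 0.10, and limma called 0 of either list, with unadjusted p under 0.05 for 0 elongation and 1 initiation factor in the missense mutants and 0 of either in the RNAi arrays. The factor with the smallest p over all 8 mutants was eif-3.E, a subunit of the initiation factor that binds the small subunit, at 7.02 and 6.73 in the wild types, 7.39 to 7.84 in the missense mutants and 7.08 to 7.62 in the RNAi arrays. All 8 were above both wild types, by 0.60 ± 0.19 (limma adjusted p = 0.591). The cap-binding protein ife-1 stood 0.51 ± 0.15 above the control in the missense mutants, 3 of 3 higher (limma adjusted p = 1.00). Between the wild types (K12 minus HT115) the elongation factors had a median of 0.04, with 5 of 8 higher in K12. The initiation factors had a median of -0.10, with 6 of 20 higher in K12.

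A further 4 genes encode proteins that sit on the ribosome but fall outside the name rule, and all 4 were higher in both comparisons, with medians of 0.26 in the missense mutants and 0.05 in the RNAi arrays. They were ubq-2, which encodes a ribosomal protein fused to ubiquitin, the scaffold rack-1 and the nascent chain binding subunits icd-1 and icd-2. The signal of icd-2 was 13.96 and 13.86 in the wild types, 14.13 to 14.36 in the missense mutants and at most 14.14 in the RNAi arrays, every mutant above both wild types. The difference over all 8 was 0.24 ± 0.09 (limma adjusted p = 0.628). Between the wild types the 4 genes had a median of -0.07 (K12 minus HT115), with 1 of 4 higher in K12.

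Ribosome biogenesis genes divided between the comparisons. Of 23 measured, 18 were higher in the missense mutants (51.8% of all genes), with a median of 0.12. In the RNAi arrays 7 were higher (50% of all genes), with a median of -0.08. Limma called 1 gene, pro-3, in both comparisons, but that call carries no weight. Its signal was 4.47 and 6.61 in the K12 and HT115 wild types and 2.55 to 2.95 in the 8 mutants, around the lower limit of 2.60. Its mean over the 10 arrays was raised mainly by the wild types, and values held near the floor understate the spread, so its p is not given. The nucleolar gene nol-16 was at 10.87 in the HT115 wild type and 10.09 to 10.77 in the RNAi arrays, a difference of -0.58 ± 0.24 (limma adjusted p = 0.569). The K12 wild type, at 10.04, lay below all the RNAi arrays, and the missense mutants were at 10.29 to 10.40. Between the wild types (K12 minus HT115) the 23 genes had a median of -0.06, with 8 higher in K12, against 46.1% of all genes.

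The remaining lists were those of the polymerase that makes ribosomal RNA, the growth pathway and the mitochondrial ribosome. Of 6 genes of RNA polymerase I 3 were higher in the missense mutants and 4 in the RNAi arrays. Of 10 genes of the TOR and S6 kinase pathway 6 and 5 were, and of all genes 51.8% and 50%. In both lists limma called 0 genes, and 1 gene had an unadjusted p under 0.05. It was rsks-1, the S6 kinase, which stood at 6.16 in the HT115 wild type and 4.54 to 5.51 in the RNAi arrays, a difference of -0.96 ± 0.37 with 0 of 5 higher (limma adjusted p = 0.513). The K12 wild type, at 5.43, lay within the range of the RNAi arrays, and the missense mutants were at 5.37 to 5.65. The S6 protein itself, rps-6, was at 14.58 in the HT115 wild type and 14.55 to 14.74 in the RNAi arrays, with overlap. Mitochondrial ribosomal proteins, measured for 57 genes, had a median of 0.12 with 49 higher in the missense mutants. In the RNAi arrays their median was 0.03 with 32 higher. Limma called 0 of them, with an unadjusted p under 0.05 for 1 and 3. Between the wild types (K12 minus HT115) the 57 genes had a median of -0.20, with 12 higher in K12, against 46.1% of all genes. The RNA polymerase I and TOR lists had medians of 0.19 and 0.17 there, with 4 of 6 and 8 of 10 higher in K12.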

How the data were processed

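Whole young adult worms were measured on 10 arrays. Values between 1.43 and 16.01 were deposited by the authors and taken as log2 from that range. The summarisation and normalization behind them are not given in the sources used here. Precision is limited by the number of arrays. Groups were taken from the labels (3 missense, 5 RNAi and 1 array of each wild type). The array medians differed by 0.13, above a limit of 0.1, so values were quantile normalised. Of 22625 probe sets, 20766 had 1 gene symbol, 887 several and 895 none, and 77 were controls. By Entrez identifier 20701 matched the RefSeq table of WBcel235, which served only to name genes. Probe sets averaging under the 25th percentile, 2.60, were left out.

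All 12641 genes were fitted with limma 3.58.1 in R 4.3.3, with a mean-variance trend, two-sided, at a Benjamini-Hochberg adjusted p of 0.05. The fit of all 8 mutants had a culture term and 7 residual degrees of freedom, and the other comparisons came from a fit of 4 groups with 6. Each control was a single array, assumed to vary like the other groups. Single arrays were compared by size, at 1.5-fold. The other genes of like signal were those with a mean at or above the 10th percentile of the members'. The fits were tested on simulated data.

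Members and lists were chosen with earlier results of these data known, and the stalk protein list was added after the annotation was seen. Members named were copies and names that differ by a final A, the 5 brightest and 5 dimmest, the 8 with the largest SD, and the 5 per direction with the smallest p in each comparison. The steadiest members, rps-6, rps-11 in nduf-6 RNAi and the stalk protein rplp-2.1 were named after their values were seen. Of each list up to 3 genes per comparison with the smallest p were named. Alternatives covered scaling, filter, choice of probe sets, moderation and leaving out each array.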

Additional observations from a re-analysis of the deposited data

Results flagged for a closer look

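The signal of rpl-41.1 in ndub-7 RNAi, 12.48, lay apart from the other 4 RNAi arrays, at 12.02 to 12.15, with a gap of 0.72 of the group's range. Chance sets a sample apart in this way in about 1 of 20 groups, and the check was run on 42 named members.

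In 10 of 74 members (13.5%) every missense array was above its control and every RNAi array below its own, against 3.5% of all genes. Of these, 8 were among the 42 named members, some of which were named for a small p in this contrast, and the others were rpl-37A and rpl-10L. For the 8, the fitted differences between the responses were 0.60 for rpl-41.1, 0.48 for rps-9, 0.36 for rpl-23, 0.31 for rpl-27A and 0.31 for rps-2. They were smaller for rps-15A (0.17), rps-27A (0.17) and rpl-41.2 (0.12). By limma's test of that difference none of the 8 passed, with an adjusted p of 0.999 for each, and the responses rest on 2 single control arrays.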

How the results depend on the processing

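No paired analysis was possible because each array was a different strain or feeding, so the replicate numbers only name arrays. Over 21 alternative settings, 10 of which left out 1 array, 0 members were called in any comparison. The median of the members moved with the scaling: in the missense mutants it was 0.12 on deposited values and 0.17 with median centring, in the difference of responses 0.10 and 0.16, and over all 8 mutants 0.091 with median centring. With median centring the median of all genes was 0.058 in the missense mutants, 0.069 in the difference of responses and 0.021 over all 8. For the members, leaving out 1 array gave a median of 0.09 to 0.10 in the missense mutants and 0.00 to 0.03 in the RNAi arrays. Over all 8 it gave 0.014 to 0.097. Both ends of that range came from leaving out a wild type, where the fit only repeats the RNAi or the missense result. Without the array pair nduf-6 and ndub-7 RNAi, an alternative chosen after seeing the data, 39 members were higher in the RNAi arrays. Gene results nearer to 0 than 0.1, which could change sign most easily, were left out of this check. Of the 34 gene results that remained 32 kept their sign throughout. The others were rpl-34 in the difference of responses (0.035 with median centring, against -0.12) and rpl-41.1 over all 8. For rpl-41.1 it was 0.16 without the HT115 and -0.44 without the K12 wild type, against -0.16. Those values repeat its missense and RNAi differences. Brightness near the top of the scale, pooled RNA and single controls limit what could be seen.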

Other observations

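Initiation factor homologues of the eIF5A type, which help the ribosome past difficult peptide bonds, exist as a germ line copy, iff-1, and a somatic copy, iff-2, and were counted here with the elongation factors. The signal of iff-1 was 13.96 in the HT115 wild type and 13.80, 13.77, 13.58, 13.41 and 13.40 in RNAi of nduf-6, of nuo-5, of ndua-13, of ndab-1 and of ndub-7, 0 of 5 higher (-0.37 ± 0.19, limma adjusted p = 0.675). That of iff-2 was 12.58 in the HT115 wild type and 13.03, 12.30, 13.28, 12.94 and 13.30 in the same arrays, 4 of 5 higher (0.39 ± 0.35, limma adjusted p = 0.943). In the K12 wild type iff-1 was at 13.56 and iff-2 at 13.07. In gas-1, mev-1 and isp-1 iff-1 was at 13.68, 13.54 and 13.75, and iff-2 at 13.21, 13.54 and 13.07.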
